A study of Mus musculus with 8 samples.

Results

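Calcium sensor and buffer genes of neurons were examined in primary motor cortex (M1) after reduction of *Fezf2*, a transcription factor gene of layer 5 projection neurons. The genes were *Ncs1*, *Hpca*, *Hpcal4*, *Vsnl1* and *Ncald* of the neuronal calcium sensor family, *Cabp1* and *Cabp7* of the calcium binding protein (CaBP) family, the calmodulin gene *Calm2* and the buffer gene *Calb1*. These 9 genes, of 38031 in the count table, were chosen by name and with the fold changes of *Fezf2 shRNA* over control in view, since *Cabp7* was known to be among the clearest decreases. Their values in this contrast are therefore given as a description without a test. All 9 were among the 9959 genes that passed the filter of more than 8 CPM (counts scaled by library total) in at least 4 libraries.

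The mice were wild-type males of the Swiss Webster strain, injected in M1 at postnatal day 21 to 25 and dissected at day 49 to 53. Both treatments used a lentivirus in which the *Synapsin I* promoter, active in neurons, drove mCherry and an shRNA within mir-30 sequence, and they differed in the shRNA, *Fezf2 shRNA* or *non-silencing shRNA* (control). The dissected piece was guided by mCherry but held all cortical layers and the meninges, including cells that were not transduced. Total RNA gave 1 library per animal, with 4 libraries per treatment and 54684016 to 58003814 counts per library over 1 transcript per gene.

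Calcium sensors of the EF-hand type change shape when calcium binds and then act on other proteins. Neuronal calcium sensor proteins carry a fatty acid that can move them to membranes, calmodulin acts on kinases, phosphatases and channels, and CaBP proteins are relatives of calmodulin found mainly in neurons and retina. Calbindin, in contrast, is known mainly as a buffer that binds calcium in the cytosol, and in cortex it marks subsets of interneurons and of superficial pyramidal cells.

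The *Fezf2 shRNA* sequence is shown to compare its target with the transcripts of the sensor genes. Each line gives the 19 nt of its sense or antisense strand, 5′ to 3′, with the longest stretch found letter for letter in an annotated transcript of the named gene in capitals.
*Fezf2*, sense: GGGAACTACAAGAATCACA
*Cabp7*, sense: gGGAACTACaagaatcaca
*Cabp7*, antisense: tgtGATTCTTgtagttccc
*Cabp1*, sense: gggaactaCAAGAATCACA
*Ncs1*, antisense: TGTGATTCTTgtagttccc
The stretch in *Cabp7* was 8 nt for the sense strand, a length reached in 29.3% of 55341 genes, and 7 nt for the antisense strand, a length reached in 52.7%. Among the 9 genes the longest was 11 nt, in *Cabp1*, a length reached in 0.64% of genes, followed by 10 nt of the antisense strand in *Ncs1*, reached in 2.03%. *Calm2* held no stretch of 7 nt or more of the sense strand. The full 19 nt were present in *Fezf2*.

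*Fezf2* itself was lower in every *Fezf2 shRNA* library than in every control. Controls 1 to 4 had 688, 767, 735 and 702 normalized counts (counts scaled to the mean effective library size), and *Fezf2 shRNA* libraries 1 to 4 had 621, 583, 568 and 592. The log2 fold change was -0.29 (standard error, SE, 0.0781), and it did not pass the threshold of an adjusted p of 0.05 and an absolute log2 fold change of 0.2 (adjusted p = 0.0824, edgeR's quasi-likelihood test). In DESeq2 it was past the threshold with log2 fold changes of -0.25 under the prior and -0.28 without one (DESeq2 adjusted p = 0.0256 in both fits). In bulk tissue, fewer cells of a type and less RNA per cell cannot be told apart.

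Of the 9 sensor and buffer genes, *Cabp7* stood lower with *Fezf2 shRNA* in all 4 libraries, *Calb1* was higher in 3 of 4, and the other 7 had log2 fold changes within 0.2 of 0. The count past the threshold was 1 of 9, *Cabp7*, where 2.09% of all genes tested were past it, 0.131% as decreased and 1.96% as increased. The treatments did not overlap for 1 of 9 genes, against 11.8% of all genes tested (4.41% lower and 7.41% higher with *Fezf2 shRNA*). Log2 fold changes were below 0 for 6 of 9 genes and for 56.6% of all genes tested, with a median of -0.02 for the 9 genes and -0.03 for all. Because the genes were listed with this contrast known, these counts are not evidence about the group.

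**Figure D1:**
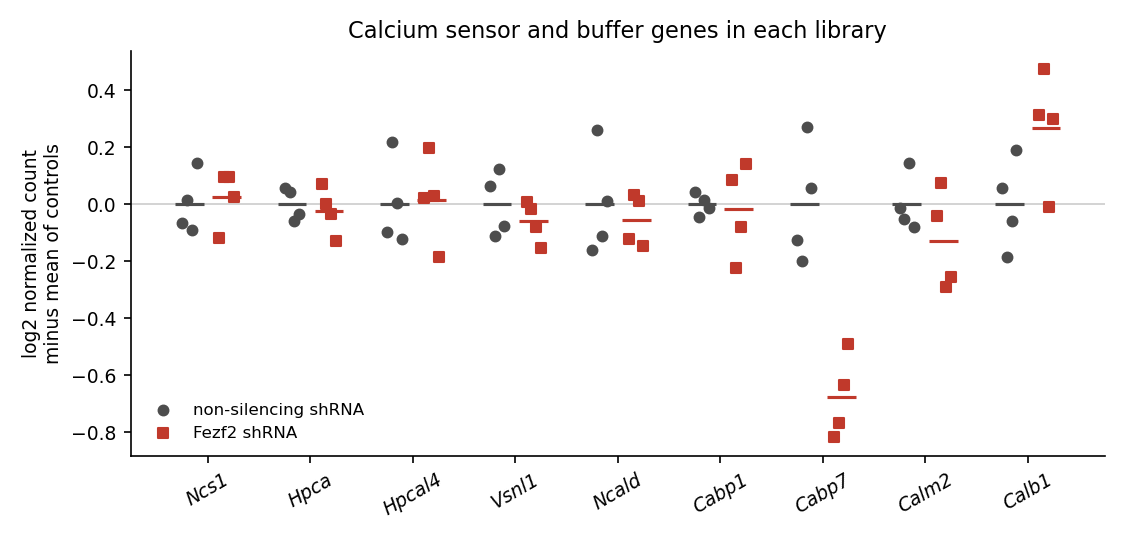
Log2 normalized counts of the 9 genes in each of the 8 libraries, minus the mean of the 4 controls on the log2 scale, with circles for *non-silencing shRNA*, squares for *Fezf2 shRNA* and bars at treatment means. The 4 *Fezf2 shRNA* libraries lie below all 4 controls for *Cabp7* alone, and for the other 8 genes the treatments overlap.

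*Cabp7* encodes a CaBP protein with a membrane anchor at its C-terminus, known for acting on a phosphatidylinositol kinase of the Golgi that *Ncs1* also regulates. The gene lies on the minus strand of chromosome 11 (chr11:4736892-4746778, GRCm38) and the transcript used, ENSMUST00000009219, has 5 exons with 2628 exonic bp in a span of 9.9 kb. The counts in controls 1 to 4 were 757, 718, 996 and 859 after normalization. *Fezf2 shRNA* libraries 1 to 4 had 468, 484, 532 and 587. The highest *Fezf2 shRNA* library, replicate 4, was below the lowest control, replicate 2, and the means were 518 ± 53.6 against 833 ± 124 (SD, n = 4 each), a difference of -37.8%. The log2 fold change was -0.68 (SE 0.120).

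The size of the *Cabp7* difference varied from -0.75 without *Fezf2 shRNA* replicate 4 to -0.58 without control replicate 3. As a description of fits on the values that chose the gene, *Cabp7* was not past the threshold without control replicate 1 or 4 or *Fezf2 shRNA* replicate 1, 3 or 4, and was past it in the other 3 of 8 omissions. With an offset for the trend of fold changes with gene length, the log2 fold change was -0.59 (SE 0.120) and *Cabp7* was not past the threshold. Its 8 libraries had 8.14 to 17.9 CPM, so the *Fezf2 shRNA* libraries were close to the filter of 8 CPM.

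The 3′ end of *Cabp7* overlaps the 3′ end of *Zmat5*, a zinc finger gene on the plus strand, over 778 bp. The counting is not stated to use strand, and reads of the 2 genes cannot be told apart there. *Zmat5* had 406, 401, 449 and 446 normalized counts in controls 1 to 4 and 291, 292, 304 and 365 in *Fezf2 shRNA* libraries 1 to 4. Its count, which includes reads of the overlap, was thus also lower in every *Fezf2 shRNA* library (313 ± 35.0 against 426 ± 25.9, SD, n = 4 each). *Zmat5* was under the filter and was not tested. Reads counted only in its last 274 bp, inside the overlap, were 92 to 107 (raw) in controls and 38 to 61 in *Fezf2 shRNA* libraries.

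All reads counted for *Zmat5* were then taken away from *Cabp7* in each library. What is left is a remainder and not a set of reads, since *Zmat5* reads outside the overlap were subtracted too. It was 351, 318, 547 and 412 normalized counts in controls 1 to 4 and 178, 192, 229 and 223 in *Fezf2 shRNA* libraries 1 to 4. The treatments did not overlap in this remainder, and the difference of mean log2 values was -0.96 (SE 0.192). The means of *Zmat5* differed by -26.5% and those of *Cabp7* by -37.8%, so a larger difference in the remainder follows from the subtraction itself. Reads of *Cabp7* outside the overlap were not counted separately, and the part of *Zmat5* in the difference was not tested.

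**Figure D2:**
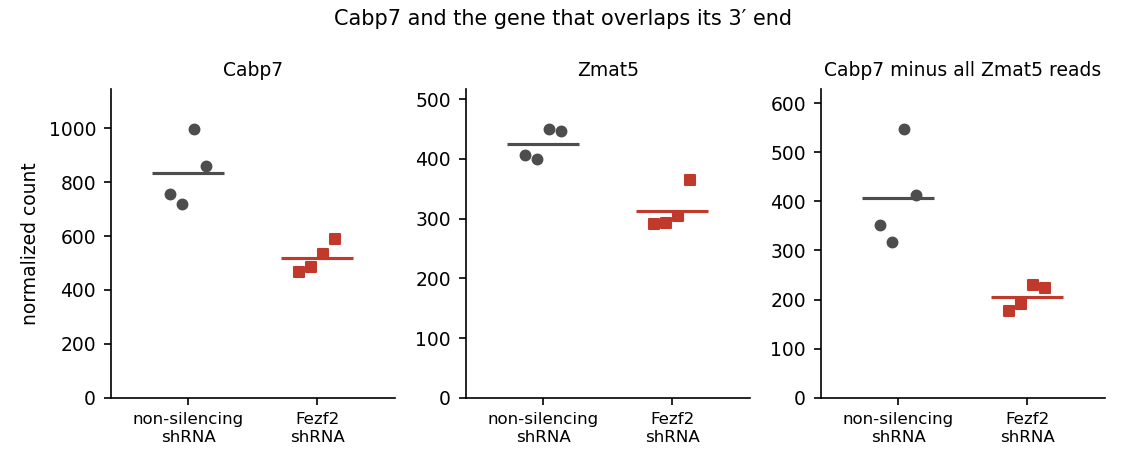
Normalized counts of *Cabp7*, of *Zmat5* and of *Cabp7* after all *Zmat5* reads were subtracted, in each library, with bars at the treatment means and each axis starting at 0. In each of the 3 panels the 4 *Fezf2 shRNA* libraries (squares) lie below the 4 controls (circles).

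*Cabp1* encodes caldendrin and shorter CaBP1 proteins, which regulate calcium channels and receptors of the endoplasmic reticulum. It lies on chromosome 5 (chr5:115168689-115186308, 17.6 kb), on the minus strand. Controls 1 to 4 had 3669.8, 3453, 3592 and 3527 normalized counts and *Fezf2 shRNA* libraries 1 to 4 had 3777, 3046, 3369.9 and 3929. The *Fezf2 shRNA* libraries lay on both sides of the narrow control range, with a log2 fold change of -0.01 (SE 0.0792).

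Longer annotated transcripts of *Cabp1* extend 8.07 kb upstream of the transcript used, and the reads of that stretch are not in the values above. The stretch had 1296 to 1381 normalized counts in controls and 1398 to 1819 in *Fezf2 shRNA* libraries. The difference of mean log2 values was 0.22 (SE 0.0872) without overlap. Of all genes tested, 7.41% were likewise higher with *Fezf2 shRNA* without overlap. The 3′ terminal part of *Cabp1* differed by -0.08 (SE 0.0917). The difference between these stretches was not tested, and 9.02% of the upstream stretch is exonic in annotated coding transcripts.

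Among the neuronal calcium sensor genes, *Hpca*, *Hpcal4* and *Ncs1* had log2 fold changes between -0.02 and 0.02. *Hpca*, encoding hippocalcin, had 11323 to 12254 normalized counts in controls and 10775 to 12403 in *Fezf2 shRNA* libraries (log2 fold change -0.02, SE 0.0639). *Hpcal4*, encoding a hippocalcin-like protein, had 21056 to 26642 and 20159 to 26302 (0.02, SE 0.100). *Ncs1*, encoding neuronal calcium sensor 1, had 7665 to 9032 and 7531 to 8734 (0.02, SE 0.0724). For all 3 genes the treatments overlapped over most of their ranges. Their 3′ terminal parts differed by 0.00 (*Hpca*, SE 0.0596), 0.02 (*Hpcal4*, SE 0.105) and 0.02 (*Ncs1*, SE 0.0832).

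*Vsnl1*, encoding visinin-like protein 1, spans 111.4 kb of chromosome 12. Controls 1 to 4 had 17052, 15128, 17811 and 15501 normalized counts and *Fezf2 shRNA* libraries 1 to 4 had 16412, 16150.1, 15463 and 14695. The treatments overlapped, and the log2 fold change was -0.06 (SE 0.0739). Genes of 100 to 300 kb had a median log2 fold change of 0.15, and with the gene-length offset *Vsnl1* was at -0.17 (SE 0.0759).

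*Ncald*, encoding neurocalcin delta, is the longest of the 9 genes, with 426.3 kb on the minus strand of chromosome 15 (chr15:37366175-37792433). Controls 1 to 4 had 14762, 19769, 15249 and 16614 normalized counts and *Fezf2 shRNA* libraries 1 to 4 had 15138, 16867, 16620.5 and 14894. Control replicate 2 was the highest library and the treatments overlapped, with a log2 fold change of -0.06 (SE 0.0964) that became 0.03 without control replicate 2. The median of the 407 genes over 300 kb was 0.29, and with the gene-length offset *Ncald* was at -0.34 (SE 0.101).

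The whole-gene value of *Ncald* joined parts with differences of opposite sign. Annotated transcripts that share an end allowed its reads to be divided into a 3′ terminal part of 14.1 kb, 19.9% of it exonic, a middle part of 79.0 kb and an upstream part of 333 kb, 0.202% of it exonic. The 3′ terminal part had 9911, 12707, 9413 and 11187 normalized counts in controls and 8750.5, 10094, 9795 and 8343 in *Fezf2 shRNA* libraries (difference of mean log2 values -0.22, SE 0.117). Every *Fezf2 shRNA* library was below the control mean there, but the treatments overlapped.

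In the upstream part, controls 1 to 4 had 1991, 2834, 2352 and 2237 normalized counts and *Fezf2 shRNA* libraries 1 to 4 had 3145, 3030.0, 3013 and 3155. Every *Fezf2 shRNA* library was above every control, and the difference was 0.40 (SE 0.107). The middle part differed by 0.06 (SE 0.132). Upstream reads amounted to 20.1%, 22.3%, 25.0% and 20.0% of the 3′ terminal reads in controls 1 to 4 and to 35.9%, 30.02%, 30.8% and 37.8% in *Fezf2 shRNA* libraries 1 to 4, so the balance of the parts did not overlap between treatments. The treatments thus overlapped for *Ncald* as a whole, while its largely intronic upstream reads were higher in all 4 *Fezf2 shRNA* libraries. Of all genes tested, 7.41% were likewise higher with *Fezf2 shRNA* without overlap. Genes over 300 kb had a median log2 fold change of 0.29, and whether the upstream part differs from that trend was not tested.

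**Figure D3:**
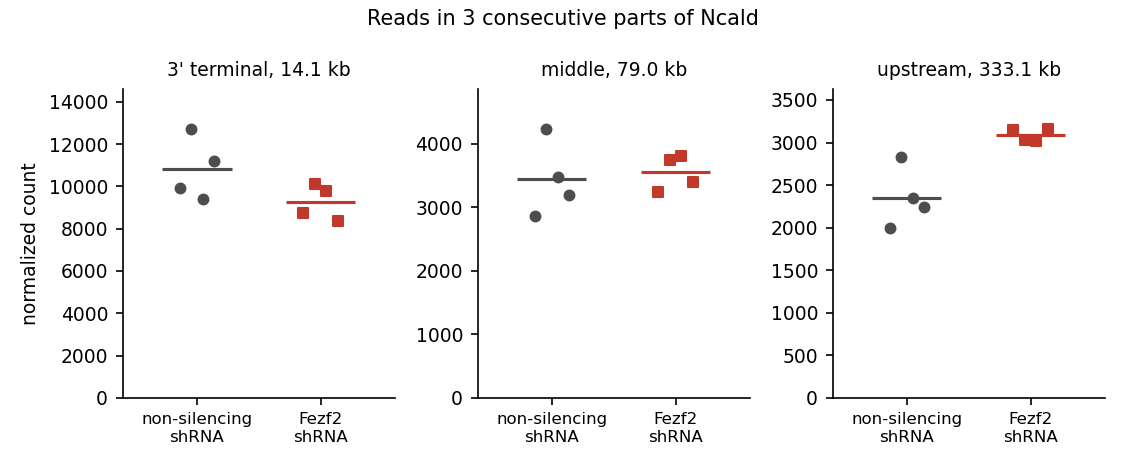
Normalized counts of the 3′ terminal, middle and upstream parts of *Ncald* in each library, with circles for *non-silencing shRNA*, squares for *Fezf2 shRNA*, bars at the treatment means and axes that start at 0 and differ in scale. The upstream part has 1991 to 2834 normalized counts in controls and 3013 to 3155 with *Fezf2 shRNA*, while the other 2 parts overlap.

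The middle part of *Ncald* holds *Gm15941*, annotated as an antisense transcript of 37422112 to 37428869. Its raw counts were 466 to 535 in controls and 105 to 120 in *Fezf2 shRNA* libraries. Its widest annotated transcript had 516 to 637 in controls and 531, 554, 191 and 515 in *Fezf2 shRNA* libraries 1 to 4. There replicate 3 alone was far below the controls. *Gm8668* (37421248 to 37422694), within that widest interval, had 403 to 486 raw counts in controls and 370, 409, 10 and 364 in *Fezf2 shRNA* libraries 1 to 4. Reads of these intervals cannot be told apart where they overlap, and a change in antisense RNA was not tested. With the reads of this widest transcript taken away, the difference in *Ncald* was -0.05 (SE 0.108). *Zmat5*, *Gm15941* and *Gm8668* are named because their intervals overlap those of *Cabp7* and *Ncald*.

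*Calm2* encodes calmodulin, as does *Calm3* with the same protein sequence. In controls 1 to 4 it had 36223, 35269, 40408 and 34562 normalized counts and *Fezf2 shRNA* libraries 1 to 4 had 35476, 38517, 29869 and 30634. The lowest 2 libraries, *Fezf2 shRNA* replicates 3 and 4, were below all controls, the other 2 were within the control range, and the log2 fold change was -0.12 (SE 0.0951). How reads that align to several places were treated is not stated, and reads shared with similar copies elsewhere in the genome make the level of *Calm2* uncertain. *Calm3* had a log2 fold change of -0.13 (SE 0.0782, adjusted p = 0.376 from edgeR) and was not past the threshold.

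*Calb1*, encoding calbindin, was the gene of the 9 with the highest log2 fold change. It lies on the plus strand of chromosome 4 (chr4:15881264-15908064), with 11 exons in 26.8 kb. Normalized counts in controls 1 to 4 were 2961, 2500.1, 2730.3 and 3246, and those in *Fezf2 shRNA* libraries 1 to 4 were 3535, 3952, 2827 and 3497. *Fezf2 shRNA* replicates 1, 2 and 4 were above all controls and replicate 3 fell among them. The means were 3453 ± 465 and 2859 ± 319 (SD, n = 4 each), and the log2 fold change of 0.27 (SE 0.107) was not past the threshold.

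*Calb1* ranged from 0.20 without *Fezf2 shRNA* replicate 2 to 0.36 without *Fezf2 shRNA* replicate 3, and was 0.31 (SE 0.103) with the gene-length offset. Both parts of the gene were higher on average with *Fezf2 shRNA*, the 5′ part rich in introns by 0.42 (SE 0.155) and the 3′ terminal part, which holds most exonic bases, by 0.21 (SE 0.136). In both parts *Fezf2 shRNA* replicate 3 was the lowest of its treatment and overlapped the controls. In the 3′ terminal part *Fezf2 shRNA* replicate 1 (2363 normalized counts) was also below control replicate 4 (2429).

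Fold changes followed a trend with gene length, and the offset for it moved some of the 9 values little and others more. *Ncs1* went from 0.02 to 0.004 and *Ncald* from -0.06 to -0.34. The median log2 fold change over the whole table was -0.12 in genes under 10 kb, -0.07 at 10 to 30 kb, 0.01 at 30 to 100 kb, 0.15 at 100 to 300 kb and 0.29 above 300 kb. The 9 genes had a median span of 17.6 kb, where all genes tested had 28.5 kb, and 6 of them spanned under 30 kb. With the offset, 4 of 9 were below 0 and their median was 0.00. *Cabp7*, *Vsnl1*, *Ncald* and *Calm2* stayed below 0, *Calb1*, *Hpcal4* and *Ncs1* stayed above it, and *Cabp1* (0.06) and *Hpca* (0.07) moved from just below 0 to just above it.

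**Figure D4:**
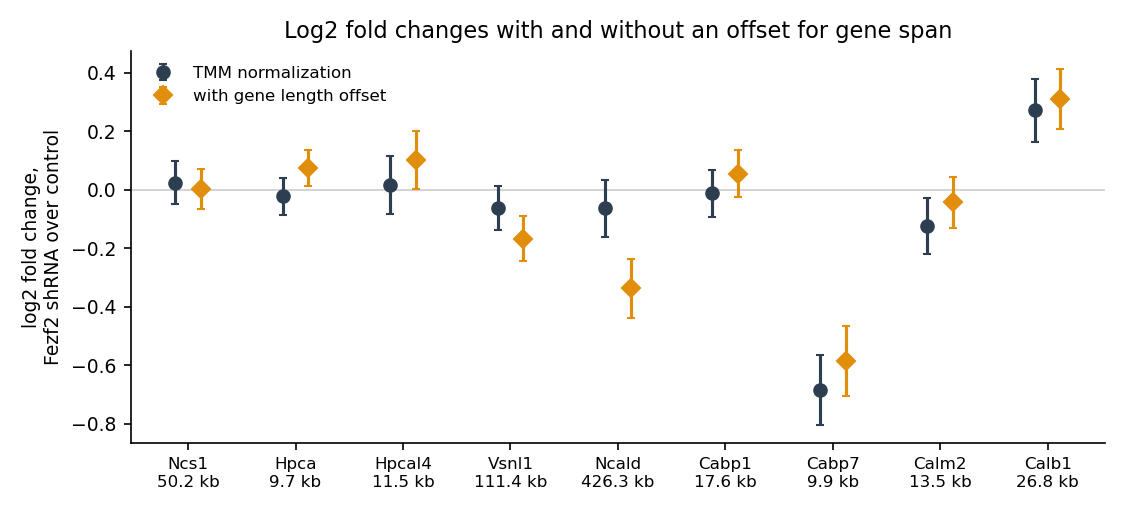
Log2 fold change of each gene, *Fezf2 shRNA* over control, from edgeR with TMM normalization (circles) and with the gene-length offset (diamonds), with bars for standard errors and the genomic span under each name. *Cabp7* goes from -0.68 to -0.59 and *Ncald* from -0.06 to -0.34.

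In control M1 the levels of the 9 genes, as normalized counts per kb of genomic span, covered a wide range. *Calm2* was highest (2707 ± 194), followed by *Hpcal4* (2007 ± 222), *Hpca* (1215 ± 47.3), *Cabp1* (202 ± 5.25), *Ncs1* (163 ± 12.2), *Vsnl1* (147 ± 11.4), *Calb1* (107 ± 11.9), *Cabp7* (84.2 ± 12.5) and *Ncald* (38.9 ± 5.29), each with its SD over 4 libraries. The ranges of neighbours overlapped for *Ncs1* and *Vsnl1* and for *Calb1* and *Cabp7*, and not for the other 6 pairs of neighbours. Per kb of exonic sequence, which takes all reads as exonic, *Calm2* (30386) was still the highest and *Cabp7* (317) the lowest. *Vsnl1* (8604) came next after *Calm2*, and *Ncald* (4446) stood between *Hpcal4* (4671) and *Cabp1* (2599).

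Replicates of the 9 genes varied about as much as those of other genes in controls, and more than those of other genes in *Fezf2 shRNA* libraries. The median coefficient of variation was 7.76% in controls and 10.3% in *Fezf2 shRNA* libraries, against 8.26% and 7.69% over all genes tested. *Cabp1* was the steadiest in controls, at 2.60%, and *Cabp7* the most variable, at 14.9%.

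Genes of calcium handling beyond the 9 were taken from lists of 89 genes, 53 of which passed the filter. In edgeR 1 gene, *Calml4*, increased past the threshold and 0 decreased, where 2.09% of all genes tested were past it. An unadjusted p under 0.05 was found for 11 of 53, against 19.6% of all genes tested. The treatments did not overlap for 6 of 53, against 11.8% of all genes tested. These counts were thus near the share of the whole table. The list of 53 had a median log2 fold change of 0.00, with 27 genes above 0 and 26 below. Of those over 100 kb, 16 of 19 were above 0, as were 87.7% of all genes of that span, and of those under 30 kb, 17 of 21 were below 0, as were 78.8% of all such genes.

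*Calml4*, a gene related to calmodulin on chromosome 9, had 419, 405, 393 and 344 normalized counts in controls 1 to 4. *Fezf2 shRNA* libraries 1 to 4 had 519, 492, 589 and 520.0, all above the controls, which gave 0.44 on the log2 scale (SE 0.0988, adjusted p = 0.0486 from edgeR). It overlaps *Gm10653* on the opposite strand, and reads of the overlap cannot be told apart. *Calml4* was above 8 CPM in 0 control libraries and in 4 *Fezf2 shRNA* libraries, so it was tested because of its higher treatment, and its adjusted p ranged from 0.00314 to 0.197 over the alternatives that tested it. The other tested genes of the calmodulin and CaBP list, 4 of 9 with *Calml4*, were not past the threshold, and the list had a median of 0.07.

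In the rest of the neuronal calcium sensor family, 5 of 8 genes were tested, 0 passed the threshold (2 at an unadjusted p under 0.05) and the median was 0.14. *Kcnip3*, encoding DREAM, had the lowest value (-0.04, adjusted p = 0.887 from edgeR) and *Kcnip1*, encoding a subunit of A-type potassium channels, the highest. *Kcnip1* had 1152 to 1289.7 normalized counts in controls and 4985, 1439, 7726 and 1354 in *Fezf2 shRNA* libraries 1 to 4. All 4 were above the controls but replicates 1 and 3 were far above replicates 2 and 4, with a log2 fold change of 1.69 (SE 0.480, adjusted p = 0.0967 from edgeR).

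Cytosolic buffers other than *Calb1* had 3 of 8 genes tested, a median of -0.15 and 0 past the threshold (1 at an unadjusted p under 0.05). *Pvalb*, the parvalbumin gene of fast-spiking interneurons, had 1472, 1664, 2164 and 1496 normalized counts in controls and 1289.7, 1255, 1344 and 1630.3 in *Fezf2 shRNA* libraries. Replicate 4 overlapped the controls, and the log2 fold change was -0.30 (SE 0.129, adjusted p = 0.232 from edgeR). *Necab1* had the highest value of this list, 0.02 (adjusted p = 0.862 from edgeR). *Pvalb* and *Calb1*, the latter also a marker of superficial pyramidal cells, thus had values on opposite sides of 0. Neither was past the threshold.

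**Figure D5:**
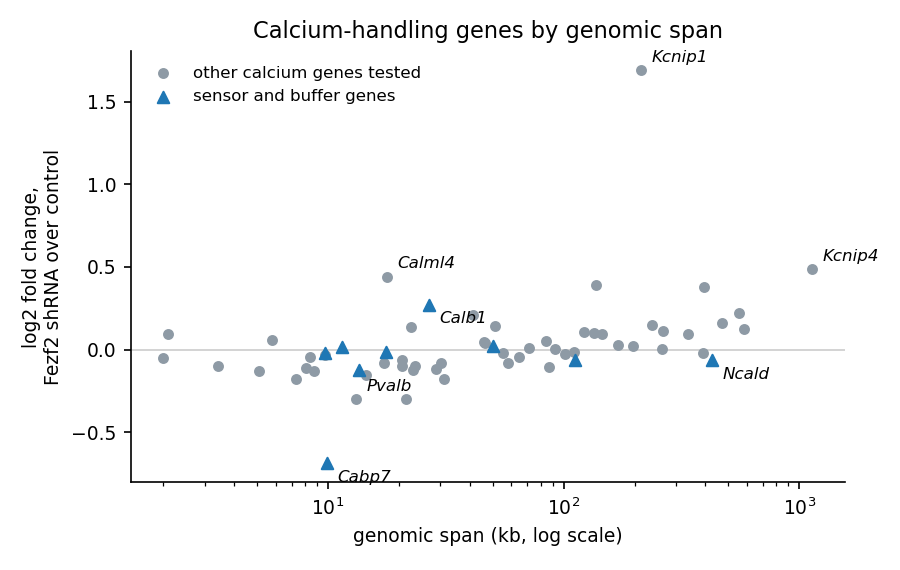
Log2 fold change, *Fezf2 shRNA* over control, against genomic span on a log scale for the 9 sensor and buffer genes (triangles) and the 53 other calcium genes tested (circles). Of the other genes, 16 of 19 over 100 kb lie above 0 and 17 of 21 under 30 kb lie below it, *Kcnip1* is highest at 1.69, and *Cabp7* is lowest at -0.68.

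S100 proteins had 3 of 13 genes tested, all below 0, from *S100b* (-0.18, adjusted p = 0.213 from edgeR), a gene of glia, to *S100a16* (-0.05, adjusted p = 0.900). Among calmodulin-binding proteins and calcineurin subunits 13 of 14 were tested, with a median of 0.01. *Rcan3*, encoding a calcineurin inhibitor, was lowest (-0.30, SE 0.0872, adjusted p = 0.102 from edgeR) and *Ppp3r1*, the regulatory subunit of calcineurin, highest (0.21, SE 0.0792, adjusted p = 0.188), and neither overlapped between treatments. In edgeR 0 genes of either list were past the threshold, with 1 S100 gene and 2 genes of the other list at an unadjusted p under 0.05.

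Calcium pumps and exchangers had 13 of 17 genes tested and a median of 0.05, between *Slc8a2* (-0.08, adjusted p = 0.477 from edgeR), a sodium-calcium exchanger, and *Slc24a4* (0.39, adjusted p = 0.148), a potassium-dependent exchanger. Genes of the endoplasmic reticulum store had 12 of 20 tested and a median of -0.05, between the chaperone gene *Canx* (-0.18, adjusted p = 0.229 from edgeR) and the calcium release channel gene *Ryr2* (0.22, adjusted p = 0.204). In edgeR 0 genes of either list were past the threshold, with 2 genes of each at an unadjusted p under 0.05.

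DESeq2 with its prior placed 7.37% of all genes and 3 of the 53 past the threshold, *Calml4*, *Rcan3* and *Kcnip4*, the last a potassium channel subunit gene of 1135.4 kb named after its values were seen (log2 fold change 0.49 and adjusted p = 0.0996 in edgeR, and 0.10 with the gene-length offset). Without the prior it also called *Kcnip1* and *Slc24a4*, 5 in all, where 7.55% of all genes were called. It called 0 of the buffer, S100 and endoplasmic reticulum genes.

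The genes whose profile over the 8 libraries was most like that of *Cabp7* were *Gas5*, *Ndrg1*, *Prodh*, *Carhsp1* and *Trappc5*. Likeness was the root mean square difference of log2 CPM profiles, each centred on its own mean, and it was 0.182 to 0.197 for these 5. Their log2 fold changes, from -0.49 (*Ndrg1*) to -0.39 (*Trappc5*), were smaller than that of *Cabp7*. The profiles hold the treatment difference by which *Cabp7* was chosen, so decreases in the genes most like it follow from the measure. The list is a description, and shared regulation with *Cabp7* was not tested.

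Markers of the cell types in the dissected tissue were present in every library, with no listed marker at 0. Summed CPM overlapped between treatments for all 8 lists and no tested marker was past the threshold. Pyramidal neuron markers summed to 1235 to 1422 CPM in controls and 1324 to 1463 in *Fezf2 shRNA* libraries (median log2 fold change -0.03). Layer 5 markers summed to 218 to 292 and 219 to 259 (-0.15), and interneuron markers to 277 to 324 and 267 to 290.0 (-0.08). In the layer 5 list the log2 fold changes were -0.29 (*Fezf2*), -0.27 (*Crym*), -0.15 (*Bcl11b*), -0.08 (*Pcp4*) and 0.11 (*Ldb2*). Beside the decrease in *Cabp7*, the oligodendrocyte list summed to 1115 to 2026 CPM in controls and 833 to 1366 with *Fezf2 shRNA*, with a median log2 fold change of -0.53 over its 6 genes. The part of these cells in the values for *Cabp7* was not tested.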

How the data were processed

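Read counts were obtained from RNA-seq of total RNA of M1, with 4 libraries per treatment. The deposited counts are raw counts per Ensembl transcript, which the authors made with tophat2 alignment to mm10 (GRCm38) and BEDTools multiCov after adapter trimming with fastq-mcf. The submitters' processing notes name bcl2fastq 1.8.4, TopHat2 2.1.1, bedtools 2.26.0, R 3.2.5 and DESeq2 1.10.1. A second deposited table of the authors' own DESeq2 comparison (base means, fold changes, standard errors, statistics and p-values) was not used. Of 94647 transcripts, 91320 were found in GENCODE M21 and 3327, with 1.82% of counts, were not. Each gene was represented by its transcript of lowest Ensembl number. In 70 of 70 pairs of transcripts of the 9 genes in which one interval lies inside the other, the outer had at least as many reads in every library, so a count covers introns and transcripts of a gene share reads. The labels and the methods name the standard and the stranded form of the library kit, and counting is not stated to use strand.

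The filter required over 8 CPM in 4 or more libraries, and genes that met it were compared with edgeR 4.0.16 (TMM, quasi-likelihood test, no covariate, Benjamini-Hochberg adjustment over all genes tested) in R 4.3.3. Past the threshold means adjusted p ≤ 0.05 and |log2 fold change| ≥ 0.2, the limits of the study's methods. Standard errors of genes are those of the fit, and those of parts of genes come from the 4 and 4 log2 normalized counts. The gene-length offset removed from each library a loess (span 0.3) of its log ratio to the mean library on log2 gene span. A prior count of 2 was used for log2 CPM profiles. Other steps used Python 3.11.15, numpy 2.4.6, pandas 2.3.3 and matplotlib 3.10.9, and the tests were checked on simulated counts.

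The 9 genes and all lists were chosen with earlier results of these data known. Named are the 9 genes, *Fezf2*, genes of the calcium lists past the threshold or at either end of a list, and the 5 genes most like *Cabp7* in profile. Some genes of the lists are not reported here by name and remain in the counts and medians of their list. The marker lists were those of pyramidal, layer 5, interneuron, striatal, oligodendrocyte, astrocyte, microglial and endothelial genes. Alternatives were other normalizations and filters, DESeq2 1.42.0, the widest transcript, the gene-length offset, the replicate number as a block and each library left out in turn. Depth was 54684016 to 58003814 counts per library over 1 transcript per gene (124333677 to 130136253 over all transcripts, where overlapping intervals count reads repeatedly), and the biological coefficient of variation was 11.7%. Subtracting *Zmat5* or *Gm15941* reads was chosen after seeing the data.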

Additional observations from a re-analysis of the deposited data

Results flagged for a closer look

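In 80 groups of 4 libraries examined for a single library apart from the other 3, 3 were flagged by Dixon's criterion at 95%. Chance alone flags about 1 group in 20, so 3 of 80 is no more than chance gives. No library was removed for it. In the middle part of *Cabp1*, control replicate 2 had 1837 normalized counts and the other controls 1921 to 1926. In the 5′ part of *Hpcal4*, control replicate 2 had 9366 against 7394 to 7647 in the other controls. *S100a16* had 346 normalized counts in control replicate 1 and 634 to 689.6 in the other controls, and its log2 fold change of -0.05 was -0.24 without that library.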

How the results depend on the processing

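In all, 208 genes passed the threshold, 195 higher and 13 lower with *Fezf2 shRNA*. The count was 136 with library totals, 84 with a filter above 1 CPM, 103 with no filter, 734 and 752 with DESeq2 with and without its prior, 90 with a replicate block, 2 with the gene-length offset alone and 2 with offset and block, and 0 to 368 with a library left out. It was 0 without control replicate 1 (1568 at an unadjusted p under 0.05), 368 without control replicate 2, 130 without control replicate 3, 4 without control replicate 4, and 13, 269, 5 and 17 without *Fezf2 shRNA* replicates 1 to 4. Of the 9 genes, 1 was past the threshold, also 1 with the block alone, and 0 to 1 with a library left out. With the offset alone, and with offset and block together, 0 were past the threshold. Of the other calcium genes 1, *Calml4*, was past it. The count was 0 with library totals, above 1 CPM, with no filter, with the block, with the offset or with both. It was 3 and 5 with DESeq2 with and without its prior, and 0 to 1 with a library left out. The 1 gene there was *Kcnip1*, without *Fezf2 shRNA* replicate 2 (adjusted p = 0.0420 from edgeR). *Calml4* was not past the threshold when any 1 control library was left out. It did not meet the filter when any 1 *Fezf2 shRNA* library was left out. The median log2 fold change of the 9 genes moved less than the spread under every alternative run. Same-numbered libraries of the treatments did not deviate together in every pair (correlations across genes 0.307, 0.0931, -0.133 and 0.167, and *Fezf2 shRNA* replicate 3 went best with control replicate 2, 0.266), so the numbers were not taken to pair samples. The causes of these changes were not tested. *Cabp7* had 8.14 to 10.3 CPM in *Fezf2 shRNA* libraries and *Calml4* 6.47 to 7.34 CPM in controls, near the filter of 8 CPM.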

Other observations

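The other marker lists gave these ranges of summed CPM in controls and in *Fezf2 shRNA* libraries, all of them overlapping between treatments. Astrocyte markers summed to 742 to 879 and 666 to 818, with a median log2 fold change of -0.10. Microglial markers summed to 139.8 to 189 and 133 to 192 (0.06), and striatal markers to 55.3 to 62.9 and 45.0 to 65.7 (-0.02 over 3 tested genes). Endothelial markers summed to 34.5 to 51.0 and 29.7 to 37.4, with 1 of 5 genes tested (-0.24). Oligodendrocyte markers, which had the lowest median, summed to 1115, 1532, 1333 and 2026 CPM in controls 1 to 4 and to 883, 833, 1366 and 1365 in *Fezf2 shRNA* libraries 1 to 4, and *Mog* gave a log2 fold change of -0.58 (adjusted p = 0.128 from edgeR).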
